A study of Mus musculus with 6 samples.

Results

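The platelet-derived growth factor (PDGF) family of the mouse has 4 ligand genes, Pdgfa, Pdgfb, Pdgfc and Pdgfd, and 2 receptor genes, Pdgfra and Pdgfrb. These 6 genes were taken by name, in a choice made with earlier results of these data known. They were found by NCBI gene number among the 18305 genes of the count tables. All 6 passed the filter on low counts that left 14581 genes. RNA sequencing had been done on 6 libraries of cultured cells from KM mice, 2 in each of 3 groups, in a study that asked how far chemically induced cells resemble Leydig cells in their transcriptome. MEF are untreated embryonic fibroblasts at passage 3 to 5, prepared from whole embryos of 12.5 or 13.5 days. CiLC are fibroblasts of the same origin and passage to which small molecules, not named in the labels, were given 24 h after seeding. LC are cells prepared from testis tissue and labelled as Leydig cells, the testosterone-making cells between the seminiferous tubules, at passage 0 to 1. Neither the age of the LC donors nor the duration of the treatment is stated in the labels. They do not tell how many animals or cultures stand behind the 2 libraries of a group, so a p-value here reflects the scatter of these libraries alone, and that scatter may be technical.

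PDGF ligands are secreted dimers that bring together 2 receptor chains, each a tyrosine kinase of the cell surface. PDGF-A and PDGF-C act through the alpha receptor, PDGF-D chiefly through the beta receptor and PDGF-B through either, and PDGF-C and PDGF-D are released with a CUB domain that a protease must remove before they bind. In the testis, PDGF-A comes from the tubules and the alpha receptor stands on interstitial cells, and mice without Pdgfa fail to form adult Leydig cells. In blood vessels, PDGF-B from the endothelium recruits pericytes and smooth muscle cells that carry the beta receptor.

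Total depth was 18.4 to 18.9 M estimated reads per library. The LC libraries bore their label in part: Cyp11a1, which makes pregnenolone from cholesterol, stood at 705 ± 17.8 CPM (counts per M reads of the scaled library size; here and below mean ± SD, n = 2), and Nr5a1, a transcription factor of steroid-making cells, at 166 ± 2.26 CPM. Cyp17a1, an enzyme on the path to testosterone, had 0 and 1 read in the LC libraries, and Lhcgr, the receptor for luteinizing hormone, had 3 and 2 reads, so these defining Leydig genes were at or near 0. Of 11 Leydig markers 8 could be tested. In CiLC 7 of these were higher than in MEF and 1 was not called, where 26.1% of all genes tested were higher. Against LC 6 were lower and 2 higher in CiLC, where 35.6% of all genes were lower and 35% higher. Cyp11a1 was at 1.33 ± 0.117 CPM in MEF and 12.3 ± 0.677 CPM in CiLC, far below LC. Nr5a1 was at 0.157 ± 0.000786 CPM in MEF and 69.0 ± 0.385 CPM in CiLC, nearer to LC, and Ptgds, a prostaglandin synthase, was higher in CiLC (27.4 ± 4.31 CPM) than in LC (6.07 ± 0.513 CPM; adjusted p = 1.92e-13). Markers of other cells were present in each group, and their summed levels are given beside the PDGF genes they move with. In bulk RNA, fewer cells of a type and less RNA per cell cannot be told apart.

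The clearest pattern was an exchange of receptors. Pdgfra was higher and Pdgfrb lower in CiLC and in LC than in MEF, so that MEF held mostly Pdgfrb mRNA and the other groups mostly Pdgfra mRNA. Among ligands, Pdgfc was lower in CiLC and lower still in LC, Pdgfa was higher in LC, Pdgfd was lower in CiLC alone among the groups, and Pdgfb moved little. At an adjusted p of 0.05, 4 of the 6 genes differed between CiLC and MEF, where 51.6% of all genes tested were called. Of these, 1 was higher and 3 lower in CiLC, where 26.1% of all genes were higher and 25.5% lower. Between LC and MEF 5 of the 6 were called, against 70.7% of all genes, with 3 higher and 2 lower in LC (35.7% and 35% of all genes). Between CiLC and LC 5 of the 6 were called, against 70.6% of all genes, with 1 higher and 4 lower in CiLC (35% and 35.6% of all genes). With shares this high over all genes, a call alone sets none of the 6 apart, and the sizes below carry the description. Each group enters 2 of the 3 comparisons, so these are not independent of each other.

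**Figure D1:**
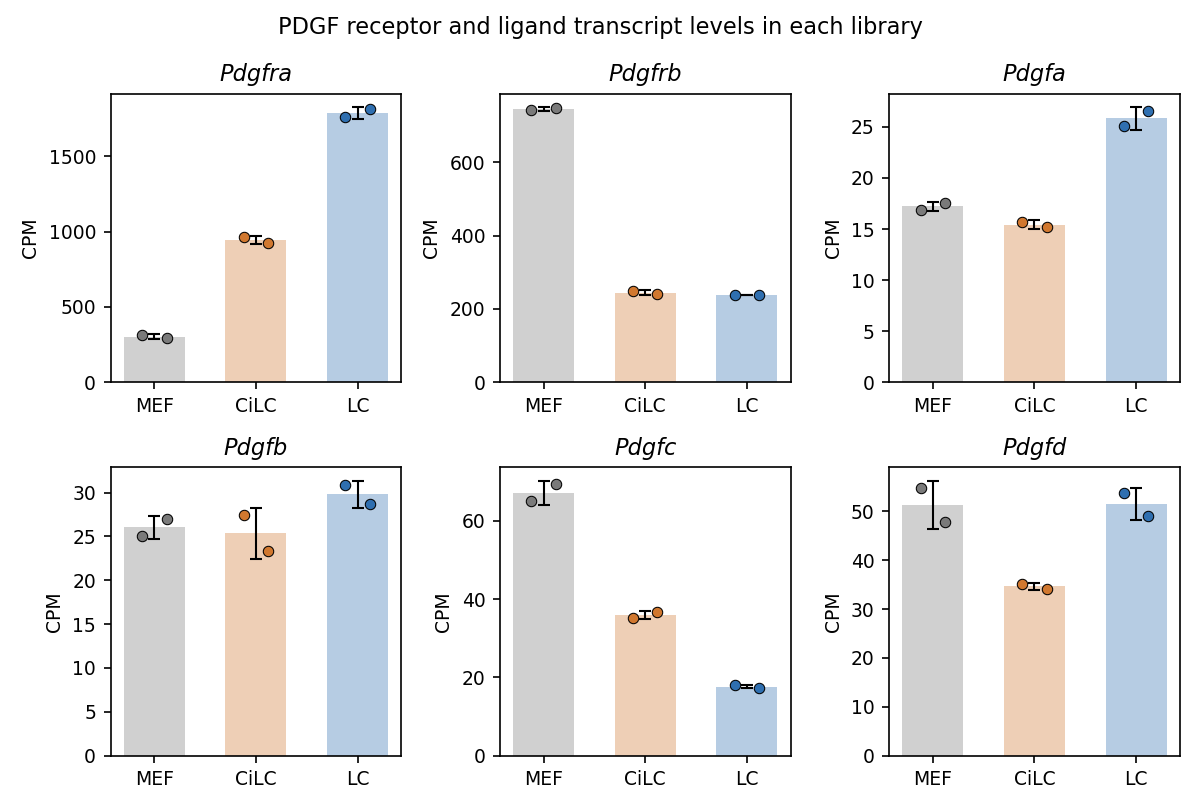
Normalised level of each PDGF gene in CPM (linear axis from 0, a separate scale per panel) in the 6 libraries. Points are libraries, bars are the means of the 2 libraries of MEF, CiLC and LC, and whiskers are ± 1 SD; Pdgfra climbs from 303 CPM in MEF to 1787 CPM in LC, and Pdgfrb stands at 745 CPM in MEF and near 240 CPM in the other groups.

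Pdgfra encodes the alpha receptor. The MEF libraries gave it 5978 and 5604 estimated reads, the CiLC libraries 18919 and 18216, and the LC libraries 30357 and 30818. After scaling this was 313 and 292 CPM in MEF, 963 and 924 CPM in CiLC and 1760.2 and 1814 CPM in LC. The gap between neighbouring groups was many times the gap within them. The means were 303 ± 15.3 CPM in MEF, 943 ± 27.6 CPM in CiLC and 1787 ± 38.1 CPM in LC. Pdgfra was 3.12-fold higher in CiLC than in MEF, a log2 difference of 1.64 (SE 0.049; adjusted p = 4.41e-18). CiLC thus lay between the other groups. Pdgfra was 5.91-fold higher in LC than in MEF (log2 2.56, SE 0.048; adjusted p = 3.01e-22). LC exceeded CiLC 1.89-fold (log2 difference of CiLC minus LC -0.92, SE 0.047; adjusted p = 3.25e-14). The absolute log2 difference between CiLC and MEF was larger than that of 92.7% of the genes tested, with 1065 genes beyond it. For LC against MEF it was larger than that of 89.8% of genes.

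Pdgfra lies on chromosome 5 of the mouse. Its promoter is shown because it is the member with the widest range across groups, and Pdgfc and Pdgfa, shown further on, are ligands of the same receptor. The window holds the 250 bases before the RefSeq start on the plus strand of GRCm38.p6, chr5:75152001-75152250. GC content is 54.4%.
Pdgfra promoter: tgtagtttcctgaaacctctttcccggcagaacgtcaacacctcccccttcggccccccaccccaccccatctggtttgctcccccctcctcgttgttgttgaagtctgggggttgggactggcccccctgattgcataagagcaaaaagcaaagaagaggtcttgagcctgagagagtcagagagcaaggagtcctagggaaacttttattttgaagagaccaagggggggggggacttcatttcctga
Each window was searched on both strands for AAGGTCA, the core bound by NR5A1, for CCACCCA, a core bound by GLI factors, and for GGGCGG, a core bound by SP1. None of these letters occurs in the Pdgfra window. Over the 32851 RefSeq windows of the same length, 4.08% hold the NR5A1 core, 8.11% the GLI core and 32.7% the SP1 core. No position of the count data is mapped onto this build, which is newer than the mm9 used for the counts.

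Pdgfrb encodes the beta receptor, a gene of pericytes, smooth muscle and many fibroblasts. Its estimated reads were 14143 and 14378 in MEF, 4884 and 4738 in CiLC and 4116 and 4049 in LC. In CPM this was 741 and 748 in MEF, 249 and 240.3 in CiLC and 239 and 238 in LC. MEF stood above all other libraries, while the CiLC and LC libraries lay side by side with both CiLC values slightly higher. Pdgfrb was 3.05-fold higher in MEF than in CiLC (log2 of CiLC minus MEF -1.61, SE 0.045; adjusted p = 1.21e-18) and 3.12-fold higher in MEF than in LC (log2 of LC minus MEF -1.64, SE 0.045; adjusted p = 1.87e-19). CiLC and LC differed by less than the test could call: the log2 difference of CiLC minus LC was 0.04 (SE 0.046; adjusted p = 0.508). The absolute difference between CiLC and MEF exceeded that of 92.5% of genes tested, and that between LC and MEF exceeded 82.6%. The 95% interval of the CiLC to LC ratio ran from 0.959-fold to 1.10-fold.

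A list of 12 mural and smooth muscle markers moved beside Pdgfrb between MEF and CiLC. Of the 11 tested, 8 were lower and 2 higher in CiLC than in MEF, where 25.5% of all genes were lower and 26.1% higher. Between LC and MEF 7 were lower and 3 higher in LC, where 35% of all genes were lower and 35.7% higher. Rgs5, a pericyte gene, fell from 74.9 ± 8.94 CPM in MEF to 1.14 ± 0.177 CPM in CiLC and 0.380 ± 0.0454 CPM in LC. Ndufa4l2, also on the list, went the other way: it was higher in LC than in MEF by 5.85 on the log2 scale (SE 0.13). Its log2 difference of CiLC minus LC was -5.18 (SE 0.11). The summed level of the list was 1793 to 1884 CPM in MEF, 184 to 187 CPM in CiLC and 1173 to 1181 CPM in LC, and Higd1b was at 0 in MEF and LC. The list therefore stood higher in both LC libraries than in both CiLC libraries, where Pdgfrb did not differ by the test. Fibroblast markers, 11 in all, summed to 51600 to 52480 CPM in MEF, 35970 to 36100 CPM in CiLC and 31740 to 33240 CPM in LC, with none at 0. The part of either list in the Pdgfrb result was not tested.

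The balance of the receptors does not depend on how libraries are scaled. Pdgfra made up 29.7% of the reads of both receptor genes in MEF library 1 (95% Clopper-Pearson interval 29.1% to 30.3%) and 28.0% in MEF library 2 (27.4% to 28.7%). In CiLC the share was 79.5% (79.0% to 80.0%) and 79.4% (78.8% to 79.9%). In LC it was 88.1% (87.7% to 88.4%) and 88.4% (88.0% to 88.7%). The intervals cover counting error only, and those of the 3 groups do not meet. Those of the 2 MEF libraries do not meet each other either, so the intervals do not measure the spread between libraries. Genes can be compared per kilobase of the longest coding transcript, if that transcript is the one in use. On that scale Pdgfrb exceeded Pdgfra 2.98-fold and 3.23-fold in the MEF libraries. Per kilobase, Pdgfra exceeded Pdgfrb 3.07-fold and 3.05-fold in the CiLC libraries and 5.85-fold and 6.04-fold in the LC libraries. The summed level of both receptors was 1047 ± 10.4 CPM in MEF, 1188 ± 33.4 CPM in CiLC and 2026 ± 37.9 CPM in LC. The sums of MEF and CiLC were closer to each other than to that of LC.

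**Figure D2:**
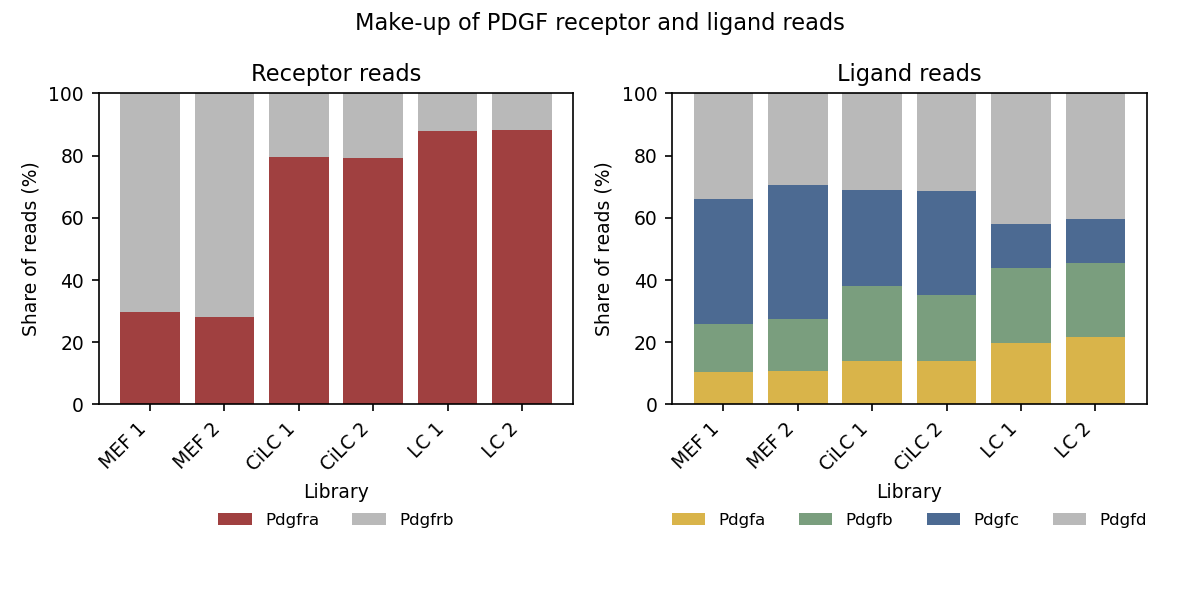
Percent of receptor reads (Pdgfra, Pdgfrb) and of ligand reads (Pdgfa to Pdgfd) taken by each gene in each of the 6 libraries, stacked. Pdgfra takes 28.0% to 29.7% of receptor reads in MEF and 88.1% to 88.4% in LC, and the Pdgfc share of ligand reads is 40.2% and 42.9% in MEF against 14.1% and 14.2% in LC.

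Pdgfc encodes a ligand of the alpha receptor that is secreted in a latent form. The MEF libraries held 1240 and 1332 estimated reads, the CiLC libraries 692 and 722, and the LC libraries 310 and 294. Levels were 65.0 and 69.3 CPM in MEF, 35.2 and 36.6 CPM in CiLC and 18.0 and 17.3 CPM in LC. The order MEF, CiLC, LC is the reverse of that of Pdgfra. MEF exceeded CiLC 1.87-fold (log2 of CiLC minus MEF -0.90, SE 0.059; adjusted p = 6.57e-12). MEF exceeded LC 3.81-fold (log2 of LC minus MEF -1.93, SE 0.072; adjusted p = 1.99e-17). CiLC exceeded LC 2.04-fold (log2 1.02, SE 0.076; adjusted p = 1.94e-11).

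The Pdgfc promoter is shown as that of the ligand whose level ran opposite to its receptor. The window is chr3:81036166-81036415 on the plus strand of GRCm38.p6, before the RefSeq start, with a GC content of 50.8%.
Pdgfc promoter: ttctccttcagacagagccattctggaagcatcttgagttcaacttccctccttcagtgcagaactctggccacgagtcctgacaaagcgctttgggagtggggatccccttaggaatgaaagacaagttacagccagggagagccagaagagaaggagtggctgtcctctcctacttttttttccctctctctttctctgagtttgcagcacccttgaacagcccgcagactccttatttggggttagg
None of the 3 searched cores occurs in it, and none in the 250-base window of Pdgfd on chromosome 9.

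Macrophage markers were present in these cultures and moved the same way as Pdgfc. All 10 listed markers were above 0 in every group, and their summed level was 5121 to 5160 CPM in MEF, 3433 to 3459 CPM in CiLC and 1231 to 1250 CPM in LC. Of the 10, 6 were lower and 3 higher in CiLC than in MEF, where 25.5% of all genes were lower and 26.1% higher. Between LC and MEF 9 were lower and 1 higher in LC, where 35% of all genes were lower and 35.7% higher. Macrophages are also a source of PDGF ligands in tissues. The part of these cells in the levels of Pdgfc or of the other ligands was not tested.

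Pdgfd encodes the other latent ligand, which acts through the beta receptor. It had 1045 and 917 estimated reads in MEF, 691 and 672 in CiLC and 927 and 834 in LC. Levels were 54.8 and 47.7 CPM in MEF, 35.2 and 34.1 CPM in CiLC and 53.8 and 49.1 CPM in LC. The MEF and LC libraries overlapped, and both CiLC libraries lay below all the rest. MEF exceeded CiLC 1.48-fold (log2 of CiLC minus MEF -0.57, SE 0.070; adjusted p = 3.46e-07), and LC exceeded CiLC 1.49-fold (log2 of CiLC minus LC -0.57, SE 0.071; adjusted p = 1.84e-07). Between LC and MEF the log2 difference was 0.01 (SE 0.067; adjusted p = 0.95), with a 95% interval from -0.13 to 0.14 on the log2 scale. Pdgfd overlaps Ddi1 in the RefSeq annotation, but Ddi1 had at most 2 reads in a library.

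Pdgfa encodes PDGF-A, the ligand that adult Leydig cell formation requires in mice. Its estimated reads were 322 and 337 in MEF, 309 and 299 in CiLC and 432 and 452 in LC. Levels were 16.9 and 17.5 CPM in MEF, 15.7 and 15.2 CPM in CiLC and 25.0 and 26.6 CPM in LC. LC stood above the other groups, and the CiLC values were slightly below those of MEF. Pdgfa was 1.5-fold higher in LC than in MEF (log2 0.58, SE 0.082; adjusted p = 1.1e-06) and 1.67-fold higher in LC than in CiLC (log2 of CiLC minus LC -0.74, SE 0.083; adjusted p = 3.61e-08). CiLC against MEF was not called, with a log2 difference of -0.16 (SE 0.087; adjusted p = 0.141) and a 95% interval from -0.34 to 0.02 on the log2 scale.

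RefSeq gives Pdgfa 2 starts on the minus strand of chromosome 5. The promoter of the start farther upstream is shown. Of the 5 member windows searched, only this one has more than 1 match to a core. It spans chr5:138994945-138995194 of GRCm38.p6 and has a GC content of 72.4%. Capitals mark CCGCCC, which is the SP1 core GGGCGG read on the opposite strand. The matches begin 93 and 86 bases before the start and do not overlap.
Pdgfa promoter: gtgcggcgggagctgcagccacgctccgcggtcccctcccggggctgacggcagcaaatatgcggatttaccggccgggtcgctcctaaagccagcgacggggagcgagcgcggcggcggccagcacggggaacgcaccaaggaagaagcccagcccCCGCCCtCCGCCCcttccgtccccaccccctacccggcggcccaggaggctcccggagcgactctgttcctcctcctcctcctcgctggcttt
The other Pdgfa window, chr5:138994282-138994531 with a GC content of 66.4%, holds 1 match to the SP1 core, 60 bases before its start. Counts per gene do not tell which start was used.

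Sertoli cells of the testis are known to make PDGF-A. Sertoli cell markers, 10 in all, summed to 17.6 to 19.2 CPM in MEF, 35.5 to 38.2 CPM in CiLC and 322 to 323 CPM in LC. All 7 that could be tested were higher in LC than in MEF and higher in LC than in CiLC. Over all genes, 35.7% were higher in LC than in MEF and 35.6% higher in LC than in CiLC. Fshr, the receptor for follicle-stimulating hormone and a defining Sertoli gene, had 10 and 2 reads in the LC libraries and none in the others, while Gata1 was at 0 in MEF and CiLC and Rhox5 at 0 in MEF. The part of these cells in the Pdgfa result was not tested.

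Pdgfb encodes PDGF-B, the ligand of endothelium and platelets that binds either receptor. Its values were not whole numbers in any of the 6 libraries, which can arise where reads are shared between genes, so its level is less certain than that of the other members. Estimated reads were 479 and 518 in MEF, 539 and 459 in CiLC and 533 and 488 in LC. Levels were 25.1 and 27.0 CPM in MEF, 27.4 and 23.3 CPM in CiLC and 30.9 and 28.7 CPM in LC. The MEF values lay between the CiLC values, and the LC values lay a little above both groups. Pdgfb was 1.15-fold higher in LC than in MEF (log2 0.20, SE 0.081; adjusted p = 0.0352) and 1.18-fold higher in LC than in CiLC (log2 of CiLC minus LC -0.23, SE 0.081; adjusted p = 0.0131). CiLC against MEF was not called, with a log2 difference of -0.04 (SE 0.081; adjusted p = 0.719) and a 95% interval from -0.21 to 0.13 on the log2 scale. Without LC replicate 1 both Pdgfb calls were lost, at log2 0.14 for LC minus MEF and -0.18 for CiLC minus LC. The call between LC and MEF was also lost without MEF replicate 1 (log2 0.14), and that between CiLC and LC without CiLC replicate 2 (log2 -0.11).

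Markers of the cells best known for PDGF-B had their highest summed levels in LC. The 12 endothelial markers summed to 15.8 to 16.6 CPM in MEF, 14.5 to 15.01 CPM in CiLC and 71.5 to 77.9 CPM in LC, with Tie1 at 0 in MEF and Sox17 and Cldn5 at 0 in CiLC. Of the 8 endothelial markers tested, 5 were higher and 1 lower in LC than in MEF, where 35.7% of all genes were higher and 35% lower. Cdh5 was higher by 4.08 on the log2 scale, and the log2 difference of Erg was -3.55. The 7 platelet and megakaryocyte markers summed to 12.3 to 13.7 CPM in MEF, 24.9 to 26.5 CPM in CiLC and 35.2 to 37.3 CPM in LC. Of the 5 tested, 2 were higher and 2 lower in LC than in MEF, beside the same shares of all genes, 35.7% and 35%. The part of either list in the Pdgfb result was not tested.

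The makeup of the ligand pool differed between groups. Pdgfc was 41.5% ± 1.93 of ligand reads in MEF, 32.3% ± 1.79 in CiLC and 14.1% ± 0.098 in LC. The Pdgfa share was 10.6% ± 0.299 in MEF, 13.9% ± 0.031 in CiLC and 20.7% ± 1.58 in LC. Pdgfd took 31.7% ± 3.06 in MEF, 31.1% ± 0.18 in CiLC and 41.2% ± 1.25 in LC, so in LC it had the largest share of reads. The summed ligand level was 162 ± 0.134 CPM in MEF, 111 ± 3.1 CPM in CiLC and 125 ± 4.2 CPM in LC. This was well below the summed receptor level in each group, but the sums are not corrected for transcript length.

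Corrected for the length of the longest coding transcript, the order of the 6 genes within a group can be read. In MEF the order per kilobase was Pdgfrb at 137 ± 0.919 CPM per kb, Pdgfra at 44.3 ± 2.25, Pdgfc at 19.1 ± 0.87, Pdgfd at 16.4 ± 1.6, Pdgfb at 8.85 ± 0.451 and Pdgfa at 8.36 ± 0.227 CPM per kb. Pdgfb and Pdgfa there lay within their spread of each other. In CiLC, Pdgfra led with 138 ± 4.03 CPM per kb, followed by Pdgfrb at 45.1 ± 1.08, Pdgfd at 11.1 ± 0.247, Pdgfc at 10.2 ± 0.283, Pdgfb at 8.61 ± 0.993 and Pdgfa at 7.496 ± 0.193 CPM per kb. In LC, Pdgfra was at 262 ± 5.59 CPM per kb, Pdgfrb at 43.98 ± 0.0424, Pdgfd at 16.4 ± 1.05, Pdgfa at 12.5 ± 0.537, Pdgfb at 10.1 ± 0.519 and Pdgfc at 5.01 ± 0.134 CPM per kb. Pdgfc thus ranked first among ligands in MEF and last in LC on this scale. The receptors occupied the top places in all 3 groups, with Pdgfrb first in MEF and Pdgfra first in CiLC and LC. Lengths are those of a GRCm38 annotation and not of the one used for the counts, so the order between close neighbours is uncertain. The transcript in use is not known either. Coding transcripts span 1795 to 3131 bases for Pdgfd and 442 to 6834 for Pdgfra, where Pdgfc has 1 of 3521. With a shorter Pdgfd transcript, Pdgfc need not rank first among ligands in MEF.

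**Figure D3:**
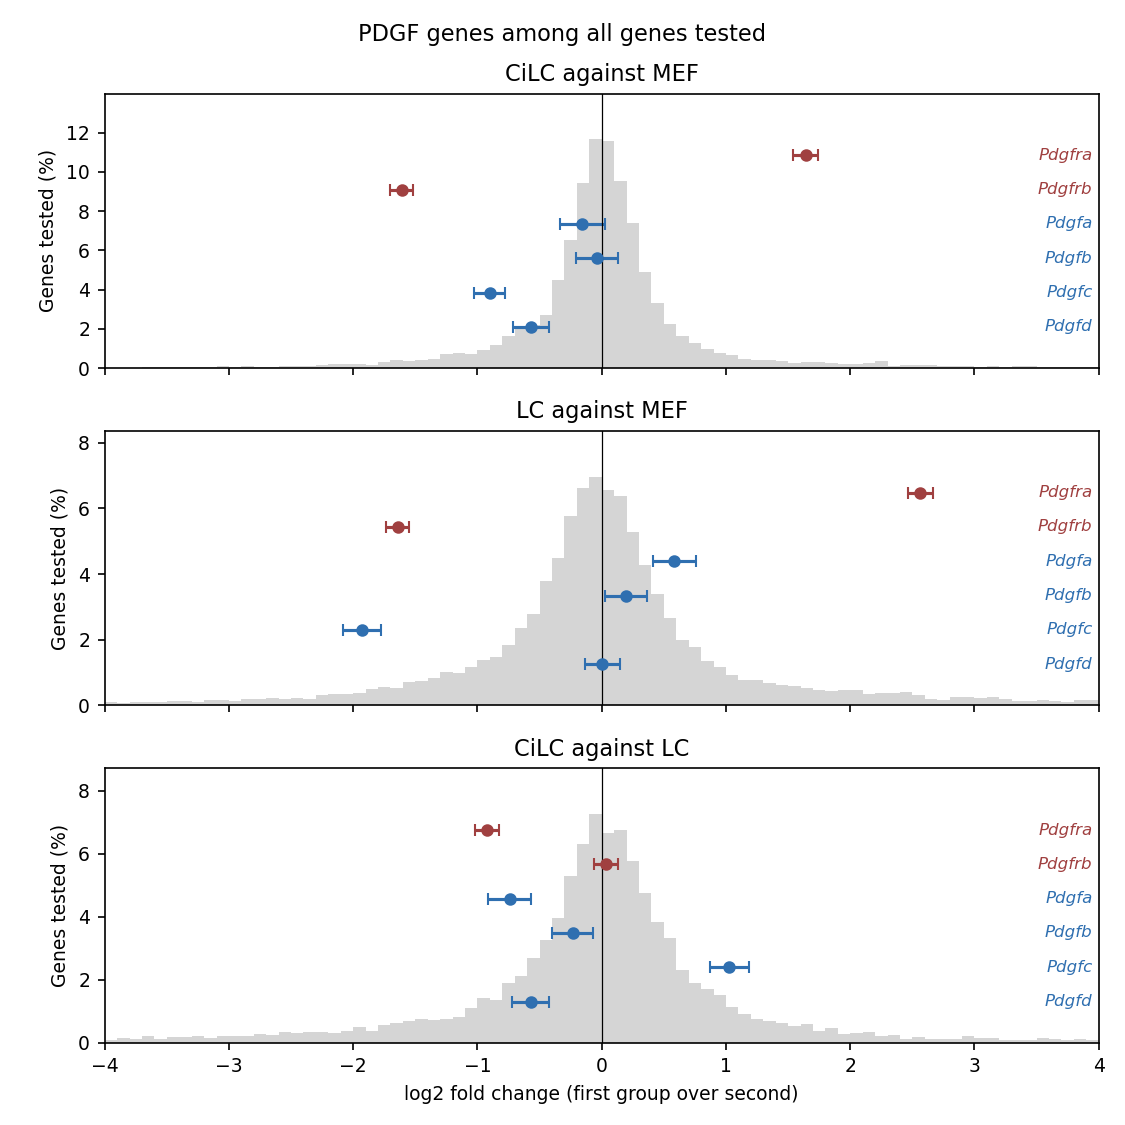
Log2 fold change of each PDGF gene in the 3 comparisons, with 95% intervals from the fit over all genes; the grey histogram gives the percent of all genes tested in each bin (vertical axis), and the height of a point only separates the genes. Pdgfra is right of 0 against MEF in both CiLC (1.64) and LC (2.56), Pdgfrb and Pdgfc are left of 0 in both, and the interval of Pdgfrb between CiLC and LC includes 0.

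These calls rest on a spread between libraries that was very small, a common biological coefficient of variation of 3.16%. When 0.4 was assumed for every gene in place of it, no member was called between CiLC and MEF, where 675 genes were called over all. Pdgfra then had an adjusted p of 0.0975, Pdgfrb 0.109, Pdgfc 0.889 and Pdgfd 1. Between LC and MEF, Pdgfra (adjusted p = 0.000322), Pdgfc (0.00997) and Pdgfrb (0.0342) were still called and Pdgfa (0.769) and Pdgfb (0.998) were not. Between CiLC and LC no member was called at that spread, with adjusted p of 0.332 for Pdgfc and 0.422 for Pdgfra.

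The genes whose pattern over the 3 groups was most like that of each member were taken by distance in their log2 differences of CiLC and LC from MEF, among 13414 genes. For Pdgfra these were Birc3 (distance 0.073), an inhibitor of apoptosis, Pard6b (0.134), a cell polarity gene, and Pilra (0.152), an inhibitory receptor of myeloid cells. Birc3 stood at 19.7 CPM in MEF, 63.4 CPM in CiLC and 112 CPM in LC. For Pdgfrb they were Mtss2 (0.127), Ramp1 (0.142), a partner of calcitonin family receptors, and 2900026A02Rik (0.159). Pdgfc was matched by Tjp3 (0.039), a tight junction gene, Ikzf1 (0.060), a transcription factor of blood cells, and Zdhhc14 (0.062). Sptan1 (0.024), a spectrin chain, Aqp7 (0.026), a water and glycerol channel, and Ctxn1 (0.027) were nearest to Pdgfd. Pdgfa and Pdgfb, whose differences were small, had many close neighbours, the nearest being Znfx1 (0.008) and Cfap157 (0.004). With 3 groups, many genes share any such pattern.

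Proteins that bind PDGF or free it from its latent form were taken as a list of 16 genes, all tested. Between CiLC and MEF 5 were higher and 10 lower, where 26.1% of all genes were higher and 25.5% lower. The median log2 difference was -0.26 where the median of all genes was 0.005. Plau, the urokinase that can cut PDGF-D, fell from 147 ± 5.39 CPM in MEF to 54.5 ± 0.314 CPM in CiLC (log2 -1.44; adjusted p = 2.25e-16). Dcn, the matrix proteoglycan decorin, rose from 455 ± 29.2 to 1280 ± 27.3 CPM (log2 1.49; adjusted p = 1.06e-16). A2m, a plasma protein that traps proteases and growth factors, rose from 5.91 ± 1.21 to 15.6 ± 1.37 CPM (log2 1.40; adjusted p = 6.81e-10).

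In LC against MEF, 10 of the 16 were higher and 6 lower, where 35.7% of all genes were higher and 35% lower. The median was 0.35 against -0.008 over all genes. Pcsk6, a proprotein convertase, was at 86.3 ± 1.86 CPM in MEF and 1.14 ± 0.0291 CPM in LC (log2 -6.24; adjusted p = 4.88e-23), while its relative Pcsk5 rose from 32.6 ± 2.64 to 207 ± 10.4 CPM (log2 2.66; adjusted p = 3.39e-21). A2m was higher by 3.63 on the log2 scale (adjusted p = 3.35e-20). Between CiLC and LC 4 were higher and 11 lower in CiLC, where 35% of all genes were higher and 35.6% lower. The median was -0.54. Pcsk6 was 30.4-fold higher in CiLC than in LC (adjusted p = 1.21e-19). A2m differed by -2.23 and Plat, the tissue plasminogen activator that can cut PDGF-C, by -1.94 on the log2 scale of CiLC minus LC (adjusted p = 1.24e-17 and 9.58e-19).

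Genes that carry the receptor signal inside the cell gave 36 tested genes. In CiLC against MEF 11 were higher, 11 lower and 14 not called, where 51.6% of all genes were called, with a median log2 difference of -0.05. Grb10, an adaptor that binds tyrosine kinase receptors, fell from 614 ± 0.606 CPM in MEF to 364 ± 8.3 CPM in CiLC (log2 -0.75; adjusted p = 1.12e-12) and to 195 ± 3.99 CPM in LC (log2 -1.66; adjusted p = 2.27e-19). Gab2, a docking protein, was lower in CiLC by log2 -0.71 (adjusted p = 1.28e-09). Cblb, a ubiquitin ligase of receptors, and Yes1, a Src family kinase, were higher in CiLC by 0.65 and 0.59 on the log2 scale (adjusted p = 1.4e-09 and 1.16e-05).

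In LC against MEF, 17 of the 36 signalling genes were higher, 11 lower and 8 not called, where 70.7% of all genes were called, with a median of 0.06. Among the genes with the widest differences were Ptpn2 and Ptprj, phosphatases that act on PDGF receptors. Ptpn2 was 2.69-fold higher in LC than in MEF (adjusted p = 3.72e-14) and Ptprj 2.37-fold lower (adjusted p = 3.75e-15). Other phosphatases of the list are not reported here. In CiLC against LC, 10 were higher, 16 lower and 10 not called, where 70.6% of all genes were called, with a median of -0.06. Pik3r1, a regulatory subunit of the PI3 kinase that docks on both receptors, was 3.10-fold higher in CiLC than in LC (adjusted p = 3.68e-18) and Map2k1, a kinase of the MAP kinase chain, 2.40-fold lower (adjusted p = 6.08e-16). Ptprj was higher by 1.24 on the log2 scale in CiLC (adjusted p = 4.75e-15).

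Genes that growth factors, PDGF among them, switch on early in fibroblasts were listed as 26 genes, all tested. In CiLC against MEF 12 were higher, 9 lower and 5 not called, where 51.6% of all genes were called. The median log2 difference was 0.09. Members of this list moved in opposite directions: Fosb, an AP-1 subunit, fell from 818 ± 19.8 to 184 ± 9.42 CPM (log2 -2.15; adjusted p = 2.27e-18) and the nuclear receptor Nr4a1 from 251 ± 11.8 to 95.8 ± 0.411 CPM (log2 -1.39; adjusted p = 1.07e-16). Egr3, an early growth response factor, fell by 1.17 on the log2 scale (adjusted p = 7.07e-15). Fosl1, another AP-1 subunit, was higher in CiLC by 1.83 (adjusted p = 0.000727), from a low level of 0.424 ± 0.238 CPM to 1.48 ± 0.601 CPM and with values that were not whole. Without MEF replicate 1 the Fosl1 difference was 2.49.

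In LC against MEF, 14 of the early genes were higher, 10 lower and 2 not called, where 70.7% of all genes were called. The median was 0.18. Ccl2, a chemokine that PDGF induces, was at 113 ± 2.3 CPM in MEF and 999.7 ± 52.4 CPM in LC (log2 3.15; adjusted p = 1.15e-23). Fosl1 reached 40.8 ± 4.33 CPM in LC (log2 6.59, or 7.25 without MEF replicate 1; adjusted p = 1.16e-18), Ier3 was 8.19-fold higher (adjusted p = 2.14e-23) and Egr3 6.52-fold lower (adjusted p = 8.29e-21). In CiLC against LC, 6 were higher and 15 lower, where 70.6% of all genes were called. The median was -0.39. The 4 widest differences were all lower in CiLC: Fosl1 by a log2 difference of -4.76, Ccl2 of -2.63, Ier3 of -2.03 and Myc of -1.72 (adjusted p from 2.13e-22 to 6.64e-18).

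The relatives of PDGF, that is the VEGF ligands, the receptors of the same kinase classes and their ligands, gave 14 tested genes of 15, Flt3 being too low. In CiLC against MEF 4 were higher, 5 lower and 5 not called, where 51.6% of all genes were called. The median log2 difference was -0.16. Kitl, which encodes stem cell factor, rose from 21.7 ± 2.99 to 129 ± 1.44 CPM (log2 2.58; adjusted p = 5.08e-19) and reached 384 ± 10.3 CPM in LC (log2 4.15; adjusted p = 6.03e-24). Its receptor Kit, a Leydig cell gene in the testis, was far lower, at 0.287 ± 0.257 CPM in MEF, 1.63 ± 0.722 CPM in CiLC and 9.08 ± 0.275 CPM in LC (log2 2.47 and 4.95; adjusted p = 8.97e-05 and 3.32e-12). Flt1, a VEGF receptor gene, fell from 134 ± 0.214 CPM in MEF to 32.0 ± 1.05 CPM in CiLC (log2 -2.07; adjusted p = 3.21e-19) and 4.001 ± 0.0812 CPM in LC (log2 -5.07; adjusted p = 6.62e-24). Kdr, another, was 7.64-fold lower in CiLC than in MEF (adjusted p = 5.25e-15) and 1.97-fold lower in LC than in MEF (adjusted p = 1.13e-08). The Kit differences from MEF rest on few reads there: without MEF replicate 1 they were 1.78 in CiLC and 4.25 in LC on the log2 scale, and without MEF replicate 2 they were 3.87 and 6.35.

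In LC against MEF, 8 of these 14 relatives were higher, 5 lower and 1 not called, where 70.7% of all genes were called. The median was 0.83. Vegfa, the main angiogenic ligand of the family, was 7.82-fold higher in LC than in MEF (adjusted p = 2.93e-23) and 4.15-fold higher in LC than in CiLC (adjusted p = 9.28e-21). In CiLC against LC 3 were higher and 9 lower, where 70.6% of all genes were called. The median was -1.10. Flt1 was 7.99-fold higher in CiLC (adjusted p = 8.85e-18), while Kit was 5.57-fold and Pgf, the placental growth factor, 3.89-fold lower there (adjusted p = 1.61e-09 and 1.5e-08).

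Pdgfra is itself used to mark the stem and progenitor cells of the Leydig lineage, so other genes used for this were listed, 16 of which were tested. In CiLC against MEF 9 were higher, 6 lower and 1 not called, where 51.6% of all genes were called. The median log2 difference was 0.18. Nes, an intermediate filament gene of stem Leydig cells and pericytes, fell from 59.3 ± 3.54 to 5.69 ± 0.373 CPM (log2 -3.38; adjusted p = 1.77e-19) and the mural receptor Notch3 from 116 ± 7.54 to 26.7 ± 0.317 CPM (log2 -2.12; adjusted p = 2.15e-18). Tcf21, a transcription factor of interstitial progenitors, was higher in CiLC by 3.24 (adjusted p = 2.29e-06), whose libraries held 40 and 30 reads where those of MEF held 6 and 1. That difference was 4.92 without MEF replicate 1 and 2.47 without MEF replicate 2.

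In LC against MEF, 11 of the 16 progenitor genes were higher, 3 lower and 2 not called, where 70.7% of all genes were called. The median was 0.52. Tcf21 had 1254 and 1125 reads in the LC libraries (log2 8.52 against MEF; adjusted p = 1.7e-21), a difference of 10.20 without MEF replicate 1 and 7.76 without MEF replicate 2. Thy1, a surface marker of many mesenchymal cells, was at 395 ± 0.825 CPM in MEF, 817 ± 30.3 CPM in CiLC and 5.73 ± 0.226 CPM in LC (LC against MEF log2 -6.11; adjusted p = 8.12e-26). Nt5e, which encodes CD73, was 9.02-fold higher in LC than in MEF (adjusted p = 2.04e-22). In CiLC against LC, 3 were higher and 12 lower, where 70.6% of all genes were called. The median was -1.20. Thy1 was 142-fold higher in CiLC (adjusted p = 1.1e-26), and Nes was 12.8-fold and Tcf21 38.9-fold lower there (adjusted p = 5.65e-21 and 9.67e-21).

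**Figure D4:**
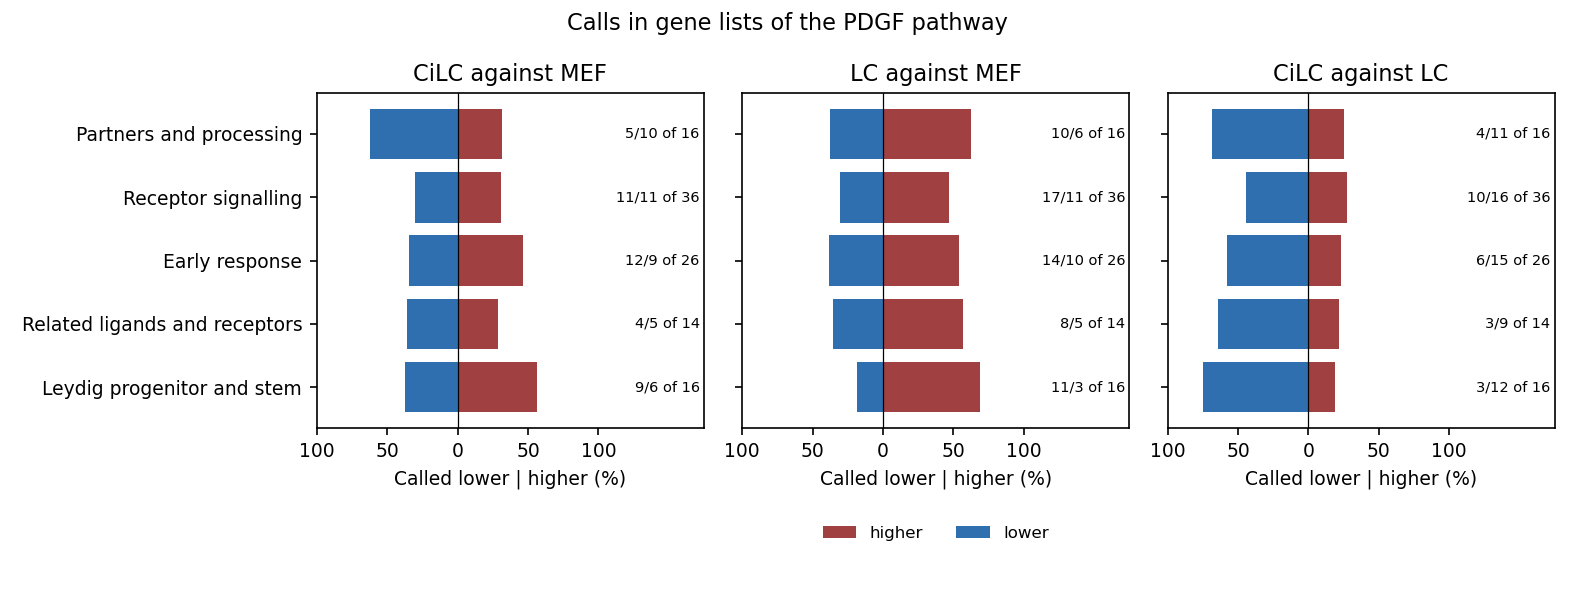
Percent of the tested genes of each PDGF-related list called higher (red, right of 0) or lower (blue, left of 0) in the 3 comparisons, with the counts as higher/lower of tested. Partners and processing genes were called lower more often in CiLC against MEF (10 of 16) and higher more often in LC against MEF (10 of 16), and signalling genes had 11 in each direction in CiLC against MEF. Over all genes tested, 51.6% (CiLC against MEF), 70.7% (LC against MEF) and 70.6% (CiLC against LC) were called.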

How the data were processed

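RNA of 6 libraries was sequenced on a BGISEQ-500, per the labels. The authors deposited unscaled expected counts (estimated reads of each gene); HISAT and the build mm9 are named in the submitters' processing notes. The aligner version, counter, annotation and strand use were not given in the sources used here. Overlapping and antisense genes may therefore share reads. Between 32.4% and 32.8% of values in a library were not whole. Symbols came from RefSeq GRCm38.p6 by gene number, for 18179 of 18305 genes. Promoter windows came from RefSeq GRCm38.p6 and transcript lengths from GENCODE M21. Windows were searched for 4 of the 6 members, and those of Pdgfb and Pdgfrb are not reported here.

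Counts were rounded and tested with edgeR 4.0.16 (limma 3.58.1) in R 4.3.3: filterByExpr (minimum count 10, total 15), TMM scaling, and 1 quasi-likelihood fit of all 6 libraries with group as the only term, two-sided, Benjamini-Hochberg adjusted over 14581 genes in each comparison. Median log2 differences of all genes were within 0.01 of 0. CPM use the scaled library sizes. Libraries of a group differed beyond sampling noise (chi-square per degree of freedom 1.80 to 2.94) and both were kept, though repeat libraries of 1 sample can also differ so. The script was tested on simulated data. DESeq2 1.42.0 and other settings served as alternatives. The members and gene lists were chosen with earlier results of these data known. From each list and comparison, at most 4 called genes with the widest log2 difference and a mean of at least 1 CPM were named, and all 6 members. Some genes that this rule names are not reported here.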

Additional observations from a re-analysis of the deposited data

How the results depend on the processing

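Every member result was recomputed under 13 settings per comparison. Pdgfra, Pdgfrb and Pdgfc in LC against MEF kept direction and call in all 13. The other calls, those of Pdgfb apart, were lost only where a biological coefficient of variation of 0.4 was assumed, which leaves the values as they were: Pdgfra 1.64, Pdgfrb -1.61, Pdgfc -0.90 and Pdgfd -0.57 (CiLC against MEF), Pdgfa 0.58 (LC against MEF), and Pdgfa -0.74, Pdgfc 1.02, Pdgfd -0.57 and Pdgfra -0.92 (CiLC against LC). At 0.4, members called numbered 0 (CiLC against MEF), 3 (LC against MEF) and 0 (CiLC against LC), and genes called over all 675, 2508 and 2251. In the same order the lists had 0, 6 and 5 (partners), 0, 1 and 1 (signalling), 1, 7 and 4 (early response), 4, 7 and 7 (relatives) and 4, 8 and 9 (progenitor) called. At 0.1, CiLC against MEF had 4205 genes, 9 partners and 9 signalling genes called, and 17 signalling genes were called in LC against MEF and 17 in CiLC against LC.

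Pdgfb was the least firm. LC against MEF it was no longer called with no filter (0.19), in DESeq2 (0.20), at 0.1 (0.20) and at 0.4 (0.20), nor was CiLC against LC (-0.23, -0.24, -0.23 and -0.23). Leaving out a library gave 0.14 to 0.25 and -0.35 to -0.11, and for CiLC against MEF, not called in any setting, -0.17 to 0.075, with the sign turning without MEF replicate 2 (0.014) and without CiLC replicate 2 (0.075). The sign of the uncalled Pdgfd difference between LC and MEF turned with no filter (-0.001), with only the 4 libraries compared (-0.002) and in leave-one-out fits, which ran from -0.093 to 0.098. The cause was not tested.

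The labels do not say whether replicate numbers pair the libraries. The correlation of same-numbered deviations was 0.088 (MEF and CiLC), 0.024 (MEF and LC) and -0.077 (CiLC and LC). Such values cannot decide it, since scatter between libraries can hide a shared culture. With a replicate block, 7505, 10294 and 10290 genes were called, and 4, 5 and 5 members. Of 779 alternatives over 60 results of other named genes, 752 kept direction and call and 0 reversed; 18 of the 27 losses came at 0.4. The fewest reads of a member were the 310 and 294 of Pdgfc in LC.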
